A study of Mus musculus with 16 samples.

Results

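The aquaporins Aqp1, Aqp3, Aqp4, Aqp8 and Aqp11 were followed in the colon of mice given dextran sulfate sodium (DSS), alone or together with methylthioadenosine (MTA). Every probe whose platform gene symbol was 1 of these 5 genes was taken, which gave 9 of the 25697 probes on the array. Aqp1 had 3 probes, Aqp8 and Aqp11 had 2 each, and Aqp3 and Aqp4 had 1 each. The other aquaporin genes of the array were read by 11 further probes.

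Total RNA came from whole colon of male C57Bl/6J mice and was hybridised to Illumina bead arrays, 1 colour and 1 array per sample. The 16 arrays fell into 4 untreated controls (Control), 6 samples given DSS and 6 samples given DSS with MTA (DSS + MTA). DSS, a polysaccharide that damages the gut lining, is widely used to induce colitis in mice, and MTA is a sulfur-containing nucleoside of the polyamine pathway. All mice were of 1 strain and 1 sex, and the labels give no age, dose, treatment time or colon segment. No group received MTA alone, so the effect of MTA without DSS was not measured. The labels do not say whether samples came from separate animals, so p-values measure only the spread between these samples, which may be technical.

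Levels are log2 of the authors' normalized intensities, and each level is comparable between arrays for the same probe but not between probes. The array medians lay between 112.012 and 112.22 on the linear scale, or 6.81 on the log2 scale. Correlations between arrays of the same group ranged from 0.912 to 0.991 over the 50% of probes with the highest mean, and 0 arrays held identical values. The labelled tissue was borne out by its markers: the 11 measured general epithelium markers and all but 1 of 10 smooth muscle markers had mean levels above the array median.

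Aquaporins are membrane channels that let water cross cell membranes along osmotic gradients, and some also pass glycerol or hydrogen peroxide. The colon recovers water from its contents by moving sodium and chloride across the epithelium, with water following through and between the cells. Aqp8 lies mainly at the luminal side of colonocytes and also passes hydrogen peroxide. Aqp4 and Aqp3 lie at the basolateral side of epithelial cells, and Aqp3 also carries glycerol. Aqp1 is a water channel of blood vessel endothelium and red blood cells, and Aqp11 is an unorthodox family member that resides within the cell, in the endoplasmic reticulum.

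Across the aquaporin probes no comparison gave a call after adjustment, and the levels of Aqp8, Aqp4 and Aqp11 differed widely between samples of the same group. In DSS against Control, 0 of the 9 probes passed limma's test at an adjusted p of 0.05, where 1764 of 25697 probes (6.86%) did. At an unadjusted p under 0.05 there were 2 of the 9, Aqp4 and the dimmer Aqp11 probe, beside 5491 of all probes. Between DSS + MTA and DSS 0 of 9 passed, beside 37 of all probes (0.144%), a background that ran from 0 to 170 probes when 1 array was left out. At an unadjusted p under 0.05 there were 0 of the 9 and 2961 of all probes. Between DSS + MTA and Control 0 of 9 passed, beside 535 of all probes (2.08%), and 2 of the 9 and 3846 of all probes had an unadjusted p under 0.05. The median difference of the 9 probes was -0.30, 0.00 and -0.36 on the log2 scale in these comparisons, beside medians of -0.02, 0.01 and -0.01 over all probes.

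**Figure D1:**
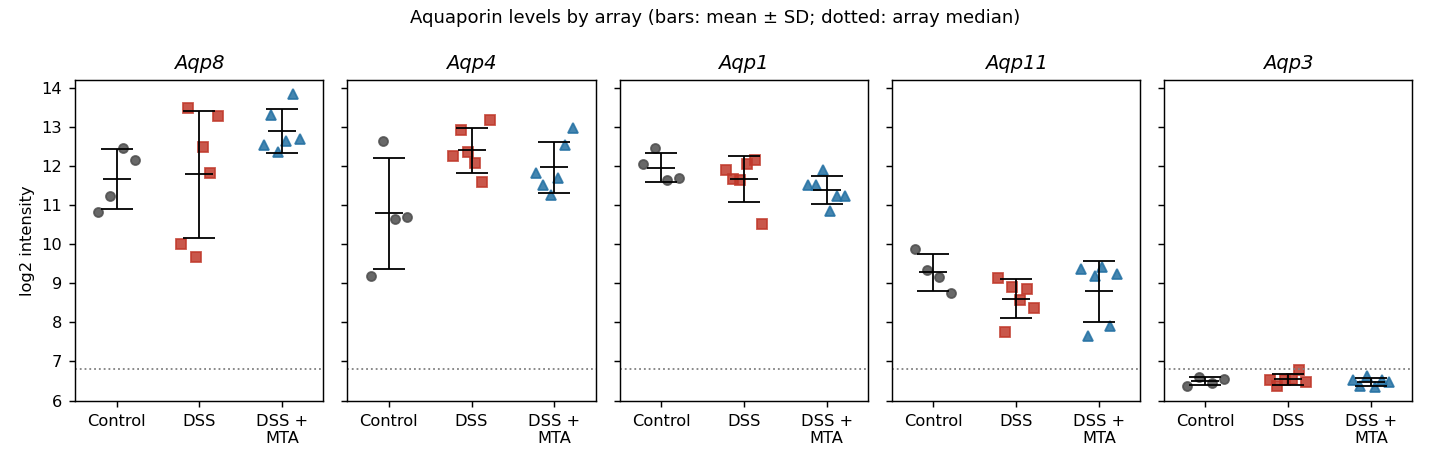
Log2 intensity of the brightest probe of each aquaporin gene in every array, for 4 Control, 6 DSS and 6 DSS + MTA samples; horizontal bars show the mean and SD and the dotted line the array median of 6.81. Aqp8 spreads over 3.81 log2 units in DSS and 1.46 in DSS + MTA, Aqp4 is lowest in a Control sample, and Aqp3 lies below the median in all 16 arrays.

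Aqp8, the luminal channel of colonocytes, had the widest spread of the members among the DSS samples. In the 4 Control samples the brighter probe (ILMN_2756379) read 10.84, 11.25, 12.47 and 12.17. In DSS its lowest level was 9.69, its median 12.15 and its highest 13.50. In DSS + MTA its lowest level was 12.38, its median 12.68 and its highest 13.84. DSS samples 1 and 3, at 10.02 and 9.69, lay below every Control sample, while DSS samples 2, 4 and 6 lay above every Control sample. The DSS group therefore ran from 824.7 to 11570 in linear intensity, a 14.0-fold range, against a 2.76-fold range in DSS + MTA.

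The group mean of Aqp8 was 11.68 ± 0.77 (SD, n = 4) in Control, 11.80 ± 1.63 (n = 6) in DSS and 12.90 ± 0.56 (n = 6) in DSS + MTA. DSS differed from Control by 0.12 ± 0.67 (SE, limma, adjusted p = 0.948), a difference whose sign turned in several refits. The 95% confidence interval ran from -1.30 to 1.53, so neither a lower nor a higher mean level was resolved. DSS + MTA was higher than DSS by 1.10 ± 0.60 (95% interval -0.16 to 2.37, limma, adjusted p = 0.496), or 2.15-fold, and each of the 6 DSS + MTA samples lay above the DSS mean. Without DSS sample 1 this difference was 0.75 and without DSS sample 3 it was 0.68. Over all 29 refits the adjusted p of limma ranged from 0.34 to 0.625. The groups overlapped between 12.38 and 13.50, and 1 of the 6 DSS + MTA samples lay above every DSS sample.

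The second Aqp8 probe (ILMN_2854157) followed the first closely, with a correlation of 0.997 over the 16 arrays. Its mean was 11.63 ± 0.79 in Control, 11.78 ± 1.57 in DSS and 12.89 ± 0.52 in DSS + MTA. DSS sample 4, at 12.49 and above every Control sample on the first probe, read 12.31 on the second, below the highest Control sample. On this probe all 6 DSS + MTA samples, from 12.47 upward, lay above all 4 Control samples, which reached 12.40. How many of all probes lacked overlap between these groups was not counted. The difference of 1.26 ± 0.64 between these groups did not pass (limma, adjusted p = 0.382), in a comparison where 2.08% of all probes passed. On the first probe the groups overlapped: 5 of the 6 lay above every Control sample, with a difference of 1.22 ± 0.67 (limma, adjusted p = 0.42). With the mean of smooth muscle markers as a covariate, added after seeing the data, the first probe's difference was 0.74 (limma, adjusted p = 0.673, within 0.139 to 0.673 over its refits). The part of smooth muscle in this difference was not tested.

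Markers of the surface colonocytes, the cells that carry Aqp8, overlapped between groups. Their summed intensity was 73380.9 to 116490.7 in Control, 69166.4 to 112540.2 in DSS and 82114.1 to 107742.9 in DSS + MTA. Of the 10 measured markers, 1 rose and 0 fell in DSS against Control, where 6.86% of all probes were called: Plac8, at 0.47 ± 0.11 (limma, adjusted p = 0.0177). Krt20, a keratin of the colon surface, differed by 0.52 ± 0.21 (adjusted p = 0.145) and Cyp2c55, a cytochrome P450 of the colon, by -1.39 ± 0.66 (adjusted p = 0.241). Between DSS + MTA and DSS 0 of the 10 passed, and 9 had differences above 0, with a median of 0.08. In whole colon RNA, fewer cells of a type and less RNA per cell cannot be told apart.

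Aqp4, the basolateral water channel, had the largest difference of the members in DSS against Control. The Control samples read 9.19, 12.66, 10.65 and 10.69 on its only probe (ILMN_2757232). In DSS its lowest level was 11.61, its median 12.31 and its highest 13.19, and in DSS + MTA these were 11.28, 11.76 and 12.97. Control sample 2 stood within the range of the treated samples, whereas the other 3 Control samples lay below all 12 of them.

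The mean of Aqp4 was 10.80 ± 1.42 (SD, n = 4) in Control, 12.41 ± 0.57 (n = 6) in DSS and 11.97 ± 0.65 (n = 6) in DSS + MTA. DSS was higher than Control by 1.61 ± 0.51 (95% interval 0.52 to 2.70), a 3.05-fold difference, but missed the threshold over all probes (limma, adjusted p = 0.0737). All 6 DSS samples exceeded the Control mean and 2 exceeded every Control sample. DSS + MTA was higher than Control by 1.17 ± 0.51 (95% interval 0.08 to 2.26, adjusted p = 0.288) and differed from DSS by -0.44 ± 0.46 (95% interval -1.41 to 0.54, adjusted p = 0.76). The difference between DSS + MTA and Control was 0.64 without Control sample 1 and 1.79 without Control sample 2, and that between DSS + MTA and DSS ran from -0.64 to -0.28 when 1 array was left out.

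The Aqp4 call in DSS against Control turned on which probes and arrays entered the fit. Among the 50% of probes with the highest mean, where 1776 of 12849 probes (13.8%) passed, its adjusted p was 0.0466. Without Control sample 2 the difference was 2.23 and the adjusted p 0.00892, and over all 29 refits the adjusted p ranged from 0.00892 to 0.253. It passed in 3 of them.

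Aqp4 is also found in glial cells of the nervous system. Of 9 measured markers of enteric glia and neurons, 2 rose in DSS against Control, where 6.86% of all probes were called. The glial filament Gfap rose by 1.21 ± 0.17 (limma, adjusted p = 0.000631) and Ret, a receptor of enteric neurons, by 1.01 ± 0.20 (adjusted p = 0.0073). The list's summed intensity was 1196.8 to 1323.4 in Control, 1421.2 to 2046.9 in DSS and 1150 to 1767.8 in DSS + MTA, and 5 of the 9 genes had mean levels below the array median. Between DSS + MTA and Control 0 of the 9 passed, with a median difference of 0.03. Control sample 2, the Control with the highest Aqp4, had a sum of 1270.4. The part of these cells in the Aqp4 levels was not tested.

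Aqp1, the endothelial and red cell channel, was lower on average in both treated groups without passing in either. Its brightest probe (ILMN_2756486) read 12.06, 12.46, 11.64 and 11.70 in Control. Its lowest, median and highest levels were 10.53, 11.80 and 12.15 in DSS, and 10.84, 11.38 and 11.90 in DSS + MTA. DSS sample 6 was the lowest of all 16 arrays, and 5 of the 6 DSS + MTA samples lay below every Control sample.

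The mean of this Aqp1 probe was 11.96 ± 0.38 in Control, 11.67 ± 0.59 in DSS and 11.38 ± 0.36 in DSS + MTA. DSS differed from Control by -0.30 ± 0.28 (limma, adjusted p = 0.597) and DSS + MTA from Control by -0.58 ± 0.28 (adjusted p = 0.337). DSS + MTA differed from DSS by -0.29 ± 0.25 (adjusted p = 0.696). The difference between DSS and Control rested largely on DSS sample 6: without it the 3 probes gave -0.07, -0.23 and -0.17. Without Control sample 2 the brightest probe gave -0.13. The other Aqp1 probes (ILMN_2980661 and ILMN_2980663) followed it, with correlations of 0.917 and 0.959 over the arrays. Their differences were -0.44 and -0.37 in DSS against Control, 0.00 and -0.18 in DSS + MTA against DSS, and -0.43 and -0.55 in DSS + MTA against Control, with adjusted p from 0.371 to 0.997.

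Markers of the endothelium, a main site of Aqp1, were higher in DSS. Of 13 blood endothelium markers, 8 rose and 0 fell in DSS against Control, where 6.86% of all probes were called, with a median difference of 0.63. The endothelial receptor Eng rose by 1.02 ± 0.16 (limma, adjusted p = 0.00135), the junction cadherin Cdh5 by 0.58 ± 0.10 (adjusted p = 0.00341) and the fenestral diaphragm protein Plvap by 1.16 ± 0.24 (adjusted p = 0.00846). The summed intensity of the list was 5626.1 to 7378.4 in Control and 9060.6 to 14825.4 in DSS, without overlap, and 4913.6 to 10771.4 in DSS + MTA. Of the same 13, 0 passed between DSS + MTA and DSS and 1 lay above 0, with a median of -0.62. The lymphatic marker Pdpn rose by 1.75 ± 0.26 in DSS against Control (adjusted p = 0.00117), the only 1 of 6 lymphatic markers to pass.

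Red blood cell markers, the other common source of Aqp1 RNA, had 0 of 4 members past the threshold in any comparison. The alpha globin Hba-a1 differed by 1.04 ± 0.46 in DSS against Control (limma, adjusted p = 0.205) and by 1.49 ± 0.46 in DSS + MTA against Control (adjusted p = 0.115). The list's sum ran from 816.2 to 1786 in Control, from 968.7 to 4733.6 in DSS and from 1763.3 to 5077.7 in DSS + MTA. The part of the vessel and blood lists in the Aqp1 levels was not tested.

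Aqp11, the intracellular member, was lower on average in the treated groups. Its brighter probe (ILMN_1225901) read 9.89, 9.34, 9.15 and 8.76 in Control. In DSS it read 9.14, 7.75, 8.91, 8.58, 8.87 and 8.36 in samples 1 to 6, and in DSS + MTA it read 9.36, 7.65, 9.18, 9.41, 7.91 and 9.25. The DSS + MTA samples were split: samples 2 and 5 lay below every Control sample, while the other 4 lay between 9.18 and 9.41, within the Control range.

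The mean of this probe was 9.28 ± 0.47 (SD, n = 4) in Control, 8.60 ± 0.50 (n = 6) in DSS and 8.79 ± 0.79 (n = 6) in DSS + MTA. DSS differed from Control by -0.68 ± 0.37 (95% interval -1.46 to 0.10, limma, adjusted p = 0.31), and all 6 DSS samples lay below the Control mean. DSS + MTA differed from Control by -0.49 ± 0.37 (adjusted p = 0.604) and from DSS by 0.19 ± 0.33 (95% interval -0.51 to 0.89, adjusted p = 0.869). The difference from Control shrank to -0.29 without Control sample 1, -0.26 without DSS + MTA sample 2 and -0.31 without DSS + MTA sample 5. The difference from DSS ran from 0.02 without DSS sample 2 to 0.42 without DSS + MTA sample 2.

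The dimmer Aqp11 probe (ILMN_2670407) separated DSS from Control without overlap but at levels below the array median in 15 of 16 arrays. It read 7.16, 6.60, 6.67 and 6.53 in Control, and its lowest, median and highest levels in DSS were 6.19, 6.26 and 6.43. How many of all probes lacked overlap between DSS and Control was not counted. The difference was -0.44 ± 0.16 (95% interval -0.79 to -0.09, limma, adjusted p = 0.129), in a comparison where 6.86% of all probes passed. In the fit with only DSS and Control its adjusted p was 0.0412, within a range of 0.0412 to 0.461 over 27 refits, of which 2 gave a call. In DSS + MTA the probe averaged 6.38 ± 0.37, which differed from Control by -0.36 ± 0.16 (adjusted p = 0.317).

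Smooth muscle markers were set beside Aqp11. Their mean log2 level was highest in DSS sample 2 (12.02), DSS + MTA sample 2 (11.82) and DSS + MTA sample 5 (11.80), the 3 arrays in which the brighter Aqp11 probe was lowest. Across the remaining 13 arrays the mean lay between 10.88 and 11.50. With this mean as a covariate, added after seeing the data, the Aqp11 difference between DSS and Control was -0.11 (adjusted p = 0.889, within 0.168 to 0.889 over its refits) in place of -0.68. Of the 10 smooth muscle markers, 2 rose in DSS against Control, where 6.86% of all probes were called. The small heat shock protein Hspb6 rose by 0.89 ± 0.18 (limma, adjusted p = 0.00864) and the actin Acta2 by 0.26 ± 0.07 (adjusted p = 0.0298). These 2 belong to the list of smooth muscle markers. Their summed intensity was 65998.6 to 78273 in Control, 74599.4 to 118631.3 in DSS and 71607.7 to 99966.5 in DSS + MTA. The mean used as a covariate averaged 11.07 in Control, 11.41 in DSS and 11.36 in DSS + MTA. The part of smooth muscle in the Aqp11 levels was not tested.

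Aqp3, the glycerol-carrying channel, stayed below the array median in all 16 arrays on its only probe (ILMN_2991272). It read 6.36, 6.61, 6.46 and 6.55 in Control. Its lowest, median and highest levels were 6.38, 6.53 and 6.78 in DSS, and 6.35, 6.50 and 6.64 in DSS + MTA. These ranges overlapped, and a level this close to the dim end of the array limits the change that could be seen.

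The largest of the Aqp3 differences was -0.06 ± 0.07 for DSS + MTA against DSS (95% interval -0.21 to 0.09, limma, adjusted p = 0.794). DSS differed from Control by 0.05 ± 0.08 (95% interval -0.12 to 0.21, adjusted p = 0.795) and DSS + MTA from Control by -0.01 ± 0.08 (adjusted p = 0.967). The sign of the DSS difference turned without DSS sample 5, and that of the DSS + MTA difference from Control turned with either marker covariate and without any 1 of 4 arrays.

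**Figure D2:**
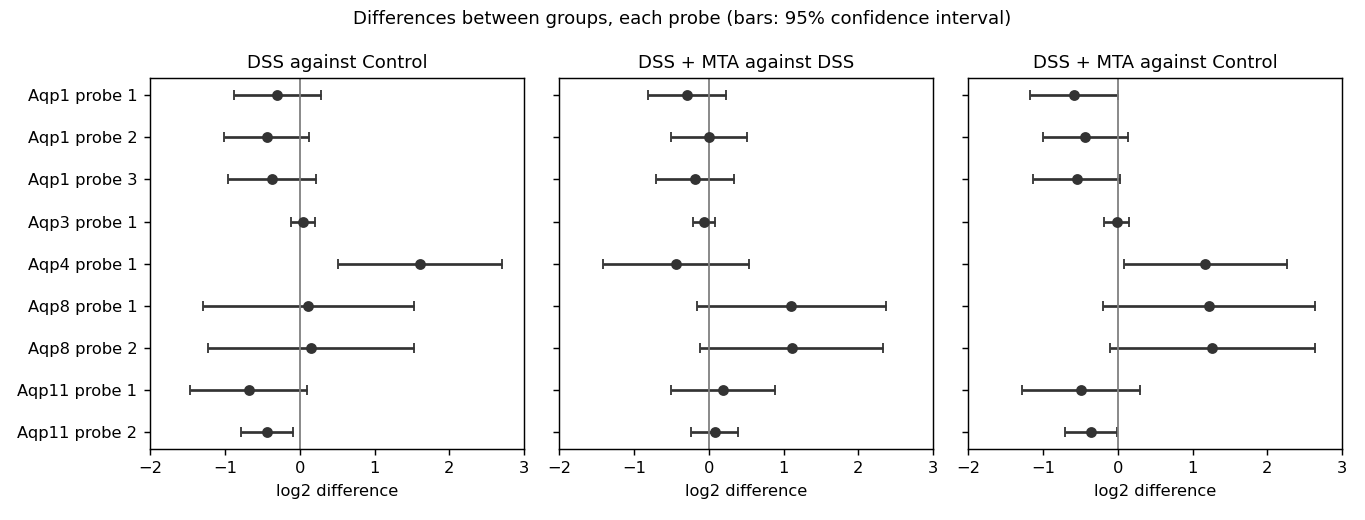
Difference in log2 intensity between groups for each of the 9 aquaporin probes, with 95% confidence intervals from limma, in the comparisons DSS against Control, DSS + MTA against DSS and DSS + MTA against Control. In DSS against Control the intervals of Aqp4 (0.52 to 2.70) and of Aqp11 probe 2 (-0.79 to -0.09) leave out 0, as do those of Aqp4 (0.08 to 2.26) and Aqp11 probe 2 (-0.71 to -0.01) in DSS + MTA against Control, and in DSS + MTA against DSS none does.

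The spread within groups set what could be resolved for each gene. The pooled within-group SD was 1.13 for the brighter Aqp8 probe, and 86 of the 25697 probes (0.335%) had a larger one. For Aqp4 it was 0.87, exceeded by 212 probes (0.825%), and for the brighter Aqp11 probe 0.62, exceeded by 596 (2.32%). The large values came mainly from 1 group each, DSS for Aqp8 (SD 1.63, against 0.77 in Control and 0.56 in DSS + MTA) and Control for Aqp4 (1.42, against 0.57 and 0.65). The Aqp1 probes lay between 0.45 and 0.46, and Aqp3, at 0.12, was exceeded by 66.8% of all probes.

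Within groups, Aqp8 and Aqp11 moved in opposite directions. The 10 pairs of members were compared by the deviations of their brightest probes from the group means. Over 16 arrays the correlation of Aqp8 with Aqp11 was r = -0.69 (two-sided permutation within groups, p = 0.00016, adjusted p = 0.0016 over 10 pairs). Spearman's rho was -0.74 (p = 0.00027, adjusted p = 0.0027), and without DSS samples 2 and 3, the farthest from the Aqp8 median, r was -0.67. The other 9 pairs had r from -0.40 to 0.51, with adjusted p from 0.445 to 0.786.

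Among the DSS arrays, the one with the highest Aqp8 (sample 2, at 13.50) had the lowest Aqp11 (7.75). The arrays with the lowest Aqp8, samples 3 and 1, had the highest Aqp11, at 8.91 and 9.14. Within DSS r was -0.85 (exact permutation test, two-sided, p = 0.0222, adjusted p = 0.176 over the 10 pairs in both treated groups, n = 6). Without samples 3 and 1 it was -0.90. Other pairs were as strong in these 6 arrays: r was -0.85 for Aqp1 with Aqp4 and -0.85 for Aqp3 with Aqp4, both with an adjusted exact p of 0.176. Over all 16 arrays those pairs had r of -0.21 and 0.08.

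Within DSS + MTA r was -0.88 (exact permutation test, p = 0.0597, adjusted p = 0.299, n = 6) and rho -0.54 (exact p = 0.297, adjusted p = 0.593). It rested on samples 5 and 2, which combined the highest Aqp8 with the lowest Aqp11, and without them r was 0.57. The 4 Control samples were too few for a value of their own. Leaving out each array in turn gave r from -0.61 to -0.76 over the groups together.

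Smooth muscle and position markers were set beside this relation. With the smooth muscle mean removed r was -0.61, and without the 3 arrays with the highest smooth muscle mean it was -0.73 (n = 13). With the mean of the posterior Hox genes removed, which mark position along the colon, r was -0.71, and with the surface colonocyte mean removed it was -0.70. The Hox list had 0 of 9 members past the threshold in any comparison, and its sum overlapped between groups (1411.1 to 3210.2 in Control, 1093.7 to 2956.6 in DSS and 1188.7 to 2903.2 in DSS + MTA). Of these 9 Hox genes, 6 had mean levels below the array median, which limits what removing their mean can show. The cause of the relation between Aqp8 and Aqp11 was not tested. With the dimmer Aqp11 probe in place of the brighter, r was -0.41.

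**Figure D3:**
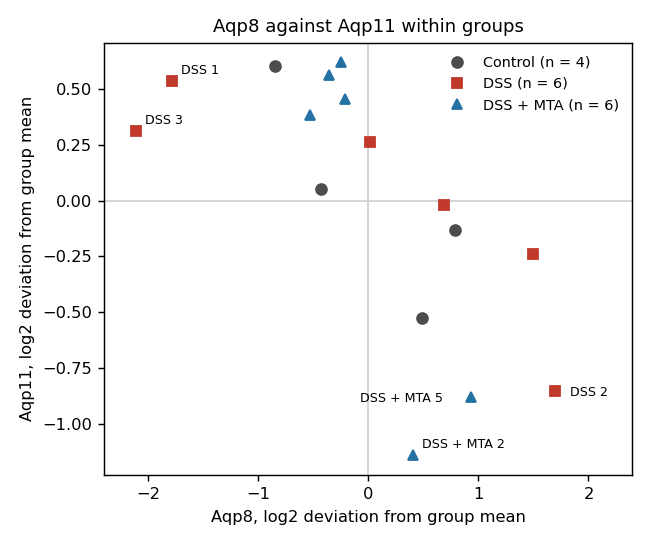
Deviation of Aqp11 from its group mean against that of Aqp8, in log2 intensity, 1 point per array (4 Control, 6 DSS, 6 DSS + MTA; brightest probe of each gene). The points run from upper left (DSS 1 and DSS 3) to lower right (DSS 2, DSS + MTA 5), with r = -0.69 over 16 arrays.

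**Figure D4:**
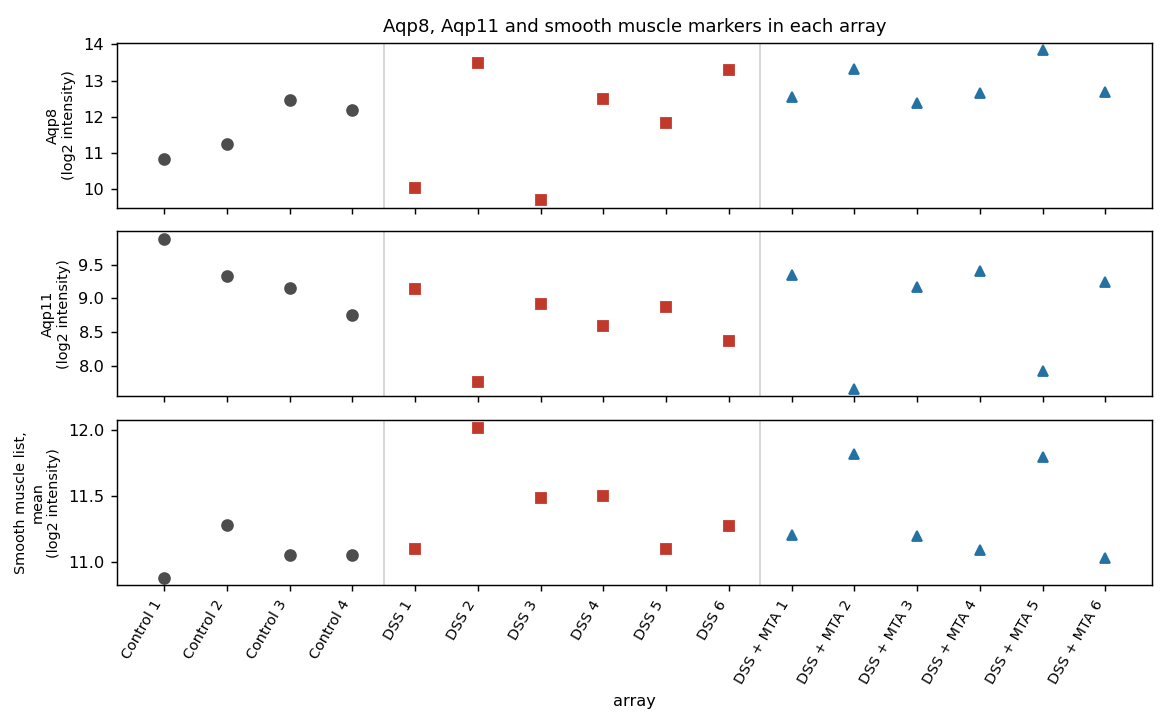
Log2 intensity of Aqp8, of Aqp11 and the mean of 10 smooth muscle markers in each of the 16 arrays, in order of group and replicate number. DSS 2, DSS + MTA 2 and DSS + MTA 5 have the lowest Aqp11 (7.75, 7.65 and 7.91) and the highest smooth muscle means (12.02, 11.82 and 11.80).

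The promoters of this pair are shown because these genes varied in opposite directions. Both windows are RefSeq sequence of mouse assembly GRCm38.p6, printed 5′ to 3′ on the gene's own strand and covering the bases just before the annotated start and the first 50 after it. Capitals mark a match to a searched motif. The Aqp8 window is chr7:123462044-123462343 on the plus strand and the Aqp11 window chr7:97738198-97738497 on the minus strand.
Aqp8: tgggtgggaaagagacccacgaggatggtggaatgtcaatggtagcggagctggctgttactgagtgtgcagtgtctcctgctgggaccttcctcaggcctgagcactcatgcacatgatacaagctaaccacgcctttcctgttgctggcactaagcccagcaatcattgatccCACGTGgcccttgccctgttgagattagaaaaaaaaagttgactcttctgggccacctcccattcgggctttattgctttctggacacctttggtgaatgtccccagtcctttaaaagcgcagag
Aqp11: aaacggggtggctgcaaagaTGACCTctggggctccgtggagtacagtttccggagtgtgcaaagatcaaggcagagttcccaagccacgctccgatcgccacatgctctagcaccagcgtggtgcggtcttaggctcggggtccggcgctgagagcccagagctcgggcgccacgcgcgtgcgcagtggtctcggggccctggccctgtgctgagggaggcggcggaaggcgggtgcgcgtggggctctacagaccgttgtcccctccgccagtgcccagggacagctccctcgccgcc
The Aqp8 window had a G and C content of 52.0% and held 1 E-box (CACGTG), which 7.15% of 32851 promoter windows held. The Aqp11 window had a G and C content of 68.0% and held 1 copy of AGGTCA, a single unit of the elements that nuclear receptors bind, here on the reverse strand, which 16.3% of the windows held. Neither held TATAAA or GGGCGG on either strand, which 13.6% and 35.7% of the windows held. No searched motif occurred in both windows, and a match is a description of the letters only.

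Each member was also set against other genes by Pearson's r of log2 levels over the 16 arrays. These genes came from the 12135 named probes among the 50% of probes with the highest mean. These correlations describe the 16 arrays, which share group differences, and carry no test. Aqp11 had the closest profiles: the glucuronosyltransferase Ugt2b36 (r = 0.98), the mitochondrial ribosomal protein gene Mrps31 (0.96) and the aldo-keto reductase Akr7a5 (0.96). Its lowest correlation was with the phosphoglucomutase-like Pgm5 (-0.92). After removal of the group means these were 0.98, 0.96, 0.97 and -0.92.

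Aqp8 was closest to Radx, a single-stranded DNA binding protein (0.91), to the chloride channel family member Clic5 (0.87) and to the corepressor Rcor1 (0.86), and was lowest with the trophoblast glycoprotein Tpbg (-0.83). Aqp4 was closest to Rhbdl3 (0.86), the teneurin Tenm3 (0.85) and the galactosyltransferase B3galt5 (0.84), and was lowest with the adducin Add3 (-0.84). For Aqp1 the closest genes were Fndc10 (0.79), the organic anion transporter Slco2b1 (0.73) and the activin receptor Acvr2b (0.73), and the lowest Aptx (-0.80). Aqp3 had the weakest matches, with Wnk1 (0.65), Esr1 (0.65) and Chtop (0.64), and Clip1 as the lowest (-0.81).

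The other aquaporin genes of the array gave no call. These were 7 genes, Mip among them, and all 7 had mean levels below the array median, and 0 of 7 passed in any comparison. Aqp9, which carries glycerol and is known from neutrophils and liver, differed by 0.26 ± 0.08 in DSS against Control (limma, adjusted p = 0.076). In the same comparison, where 6.86% of all probes were called, 7 of 11 neutrophil and monocyte markers rose. Among them were Il1b, by 3.32 ± 0.32 (limma, adjusted p = 0.000034), and S100a8, by 3.93 ± 0.47 (adjusted p = 0.000182). Between DSS + MTA and DSS Aqp9 differed by -0.20 ± 0.08 (adjusted p = 0.327), and 0 of the 11 markers passed.

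Water in the colon follows salt, and the sodium and chloride transport genes were mostly lower in DSS without passing the test. Of 20 measured genes 0 passed in DSS against Control, 3 lay above 0 and the median difference was -0.28, against -0.02 over all probes. The basolateral potassium channel Kcnq1 differed by -1.11 ± 0.33 (limma, adjusted p = 0.0577), the calcium-activated potassium channel Kcnn4 by -0.83 ± 0.30 (adjusted p = 0.116) and the large-conductance channel Kcnma1 by 0.56 ± 0.19 (adjusted p = 0.0899). Between DSS + MTA and DSS 0 of 20 passed, with a median of -0.01, and the scaffold of the sodium-proton exchanger, Slc9a3r1, differed by 0.46 ± 0.13 (adjusted p = 0.166). Against Control, 0 of 20 passed in DSS + MTA, with a median of -0.24. The basolateral chloride loader Slc12a2 differed there by -0.71 ± 0.21 (adjusted p = 0.0958).

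Among 18 regulators of colon water and salt handling, 1 rose in DSS against Control, a share near the 6.86% of all probes called. This was Nedd4l, a ubiquitin ligase that removes the epithelial sodium channel from the membrane, at 0.94 ± 0.15 (limma, adjusted p = 0.00172). The receptor Vipr2 for the neuropeptide VIP differed by 0.18 ± 0.06 (adjusted p = 0.0987), the glucocorticoid-inactivating enzyme Hsd11b2 by -0.71 ± 0.27 (adjusted p = 0.125) and the secretory neuropeptide Vip by 0.88 ± 0.36 (adjusted p = 0.165). None passed between DSS + MTA and DSS (0 of 18), with Vipr2 at -0.28 ± 0.05 (adjusted p = 0.0662) and Nedd4l at -0.46 ± 0.14 (adjusted p = 0.199), and in DSS + MTA against Control 0 of the 18 passed.

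Of 10 genes that make or remove glycerol or hydrogen peroxide, the other cargo of Aqp3 and Aqp8, 1 rose in DSS against Control, where 6.86% of all probes were called. The peroxide-producing oxidase Duox2 rose by 0.76 ± 0.14 (limma, adjusted p = 0.00383), and it also rose in DSS + MTA against Control, by 0.72 ± 0.14 (adjusted p = 0.0128). It was the only 1 of the 10 to pass in that comparison, where 2.08% of all probes were called. The colon oxidase Nox1 differed by -1.60 ± 0.50 in DSS against Control (adjusted p = 0.0677) and the superoxide dismutase Sod1 by -0.53 ± 0.18 (adjusted p = 0.0892). In DSS + MTA against DSS 0 of the 10 passed.

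General epithelium markers were close to level between DSS and Control. Of 11, 0 rose and 1 fell in DSS against Control (6.86% of all probes called), the tight junction claudin Cldn7 at -0.31 ± 0.09 (limma, adjusted p = 0.0417), and the median difference was 0.01. In DSS + MTA against DSS Cldn7 rose by 0.42 ± 0.08 (limma, adjusted p = 0.0403), where 0.144% of all probes were called. It was the only gene of all the lists to pass there. Cldn7 did not pass in the fit with only these groups, where 0 of all probes did. Of the 11 markers, 9 lay above 0 between DSS + MTA and DSS, with a median of 0.15 against 0.01 over all probes. In DSS + MTA against Control 1 of the 11 passed, where 2.08% of all probes were called. This was the epithelial transcription factor Elf3, which rose by 0.42 ± 0.08 (limma, adjusted p = 0.0128). Of the 10 surface colonocyte markers 1 passed there, Plac8, which rose by 0.50 ± 0.11 (limma, adjusted p = 0.0301). The adipocyte list, a sign of attached fat, had 0 of 7 past the threshold and a median of -0.53 in DSS against Control, and the skeletal muscle list had 0 of 8 and a median of -0.01.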

How the data were processed

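Total RNA of 16 whole colon samples was read on Illumina bead arrays. Per the labels' protocols, RNA was amplified and labelled with biotin. The values used are the authors' normalized, linear intensity of each probe, as deposited. How the background was treated, how arrays were normalized and with which software is not given in the sources used here. An un-normalized table was not used, because its 32 columns are named by array position and could be given to no sample. Array slides could therefore not be tested as a batch.

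Their log2 values entered a linear model of 3 group means without covariates (limma 3.58.1 under R 4.3.3, with eBayes). All 25697 probes entered, p-values are two-sided, and Benjamini-Hochberg adjustment ran over all of them with a threshold of 0.05. Groups follow the treatment named in the sample titles. Gene names came from the platform annotation, where 23978 probes had 1 symbol and 1719 were unnamed; the identifiers were checked against the RefSeq table of GRCm38.p6, which changed 0 symbols. In simulated data with 200 changed probes, these steps found 86% of log2 changes of 1 for DSS against Control, with 9 false calls among 195. For DSS + MTA against DSS they found 88%, with 13 false calls among 201, and for DSS + MTA against Control 85%, with 3 among 188. Values were drawn independently for each probe and array, so deviations that real arrays share across probes were left out. The shares found and the false calls hold for such independent values only. The changed probes were drawn at random from all probes, and each kept its own within-group SD. Of all probes, 0.335% had a larger SD than the brighter Aqp8 probe and 0.825% a larger one than Aqp4. The shares found therefore do not describe how often such a change would be found in those genes. The number of arrays limits the precision.

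The members and the 15 gene lists (172 genes, 151 measured) were chosen with earlier results of these data known. The text names every probe of the members, and for each member the 3 other genes of highest and the 1 of lowest correlation. From each list it names some of the 4 genes of smallest p in a comparison, not always the first of them. The probe with the highest mean stood for a gene in lists and pairs. Pair correlations used 100000 permutations within groups, and the tests within a treated group, exact and adjusted over 20, were added after seeing the data. Promoter motifs were searched on both strands. Alternatives covered the probes, arrays and groups in the fit, scaling, background, pseudocount, variance model, blocks and marker covariates.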

Additional observations from a re-analysis of the deposited data

Results flagged for a closer look

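Of 27 combinations of an aquaporin probe and a group, 1 held an array far from the rest of its group. DSS sample 6 read 10.53 for the brightest Aqp1 probe, and the nearest of the other 5 DSS samples read 11.66. That gap was 0.697 of the group's whole range, above the limit of 0.625 for 6 samples. In groups of normally distributed values the limit is passed in about 1 of 20. The 27 combinations are not independent, because probes of a gene read the same samples, so this rate gives no expected count here. The same array was also lowest in DSS on the other Aqp1 probes, at 9.15 and 7.94. The cause was not tested.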

How the results depend on the processing

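The 9 aquaporin probes in 3 comparisons were refitted under 762 alternatives in all, which gave 5 calls and 29 changes of sign. For DSS against Control, Aqp4 passed among the 50% of probes with the highest mean (adjusted p = 0.0466, or 0.046 with 1 probe per gene) and without Control sample 2 (2.23, adjusted p = 0.00892), within a range of 0.00892 to 0.253. Aqp11 probe 2 passed with only the groups compared (adjusted p = 0.0412) and with the Hox covariate (-0.51, adjusted p = 0.0479), within 0.0412 to 0.461. Signs turned for small differences only. Aqp8 probe 1 in DSS against Control was -0.14 with array weights, -0.16 with the replicate block, -0.46 with the smooth muscle covariate and -0.22 to 0.54 when 1 array was left out; probe 2 was -0.12, -0.14, -0.40 and -0.17 to 0.53. Aqp1 probe 2 in DSS + MTA against DSS was -0.057 with array weights, -0.0095 with the smooth muscle covariate and -0.20 to 0.14 without 1 array. Aqp3 in DSS + MTA against Control was 0.0039 with the Hox and 0.018 with the smooth muscle covariate, and -0.055 to 0.027 without 1 array; in DSS against Control it ran from -0.0022 to 0.085, and Aqp11 probe 2 in DSS + MTA against DSS from -0.0018 to 0.17. For Aqp3 with Aqp4, r was 0.53 without the 2 arrays farthest from the Aqp3 median, against 0.08. Counts over all probes for DSS against Control were 2694 with array weights, 892 with the smooth muscle covariate and 872 to 2200 without 1 array (872 without Control sample 3, 1055 without Control sample 4). For DSS + MTA against DSS they were 0 with only these groups (2627 at an unadjusted p under 0.05), 64 with array weights, 241 with the smooth muscle covariate and 0 to 170 without 1 array. Of those, the counts that left the main 37 by over 1.5 times were 12, 7 and 13 without Control samples 2, 3 and 4; 0, 16, 18, 11 and 90 without DSS samples 2 to 6; and 6, 170, 6, 24 and 0 without DSS + MTA samples 1, 2, 3, 4 and 6. For DSS + MTA against Control they were 343 with only these groups, 829 with array weights and 156 to 854 without 1 array (281, 156 and 222 without Control samples 2, 3 and 4; 305 and 854 without DSS + MTA samples 5 and 6). The cause of these shifts was not tested. Titles share replicate numbers, but 14 pairs of the same number had deviations correlating from -0.32 to 0.63, 7 of them over 0.1, and 4 of 16 arrays correlated best with their own number, so the numbers were not taken as pairs. The replicate block gave 2260, 269 and 742 calls in the 3 comparisons and no call for an aquaporin probe. Background correction from detection p-values could not be run, as its columns could be given to no sample. Aqp3 and Aqp11 probe 2, below the array median, have the least signal over background.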
